A study of Mus musculus with 22 samples.

Results

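The genes described here encode structural microtubule-associated proteins (Map1a, Map1b, Map2, Map4 and Map6), the stathmin family (Stmn1, Stmn2, Stmn3 and Stmn4) and the neuron-specific beta-tubulin Tubb3. Every non-control probe of the array whose RefSeq transcript belongs to 1 of these 10 genes was taken, which gave 16 probes of 55681 on the array, of which 28026 could be named through RefSeq. Map1a, Map1b, Map2, Map6, Stmn1 and Stmn4 have 2 probes each, and the other 4 genes have 1. The genes were selected on the differences between genotypes measured in these same mice (Log2 FC and calls at the 3 ages), so those differences are given as a description, with no p-value for a single probe, and counts of calls among the 16 probes are read for nothing beyond themselves.

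RNA of the right hippocampus came from TgproNGF#3 mice and from WT mice on a C57Bl/6xDBA/2 background, 1 mouse per array. TgproNGF#3 is the line of 1 transgenic founder that carries a mouse pre-proNGF cDNA made resistant to furin cleavage, followed by an IRES and EGFP, under the Thy1.2 promoter, which is active in neurons after birth. There were 4 TgproNGF#3 and 4 WT males at 1 month, 4 and 4 males at 3 months, and 3 and 3 females at 12 months, and none had been treated. The arrays of an age share 1 slide that holds no other age, and effects of age, of sex and of slide cannot be told apart. The hippocampus is a mixture of cells, in which fewer cells of a type and less RNA per cell cannot be told apart.

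Microtubules are polymers of alpha- and beta-tubulin dimers that grow and shrink at their ends, and in neurons they fill axons and dendrites and carry transport. Structural microtubule-associated proteins bind along the polymer and stabilize it, whereas stathmins bind free tubulin dimers and favour shrinkage. Both classes are phosphorylated by neuronal kinases, which loosens their binding, and several members are known for their part in neurite growth in the developing hippocampus.

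Values are log2 intensities relative to the 75th percentile of each array, and Log2 FC is the mean of the TgproNGF#3 mice minus the mean of the WT mice on that scale. Values in a group are given in the order of the replicate numbers. The word called stands for probes that passed both an unadjusted p of 0.05 in limma and a change of more than 1 in Log2 FC in either direction. All 16 probes were well above background on all 22 arrays. Between 57.6% and 80.3% of the non-control spots of an array were well above background, and 44 of 45 genes used as markers of hippocampal cell types were above background on all 22 arrays (Eomes on 19).

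Called probes were found for Map1b and Map2 at 3 months and for Map1b at 12 months, and the Map1b probe called at 3 months was not the one called at 12 months. At 1 month 0 of the 16 probes were called, beside 0.57% of all 40536 probes tested. At 3 months 2 of 16 were called, both lower in TgproNGF#3 (1 probe of Map1b and 1 of Map2), beside 6.76% called and 6.12% called lower among all 33593 probes. After Benjamini-Hochberg adjustment in limma over all probes, 3 of 16 were below 0.05 at 3 months, all lower (the same pair and the other Map2 probe), beside 8.43% of all probes. At 12 months 1 of 16 was called, a Map1b probe that was higher in TgproNGF#3, beside 1.3% called and 0.311% called higher among all 34064 probes. No probe of the array passed the adjusted threshold at 1 month or at 12 months, where 3.47% and 9.05% of all probes, and 1 and 2 of the 16, had an unadjusted p below 0.05 in limma.

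**Figure D1:**
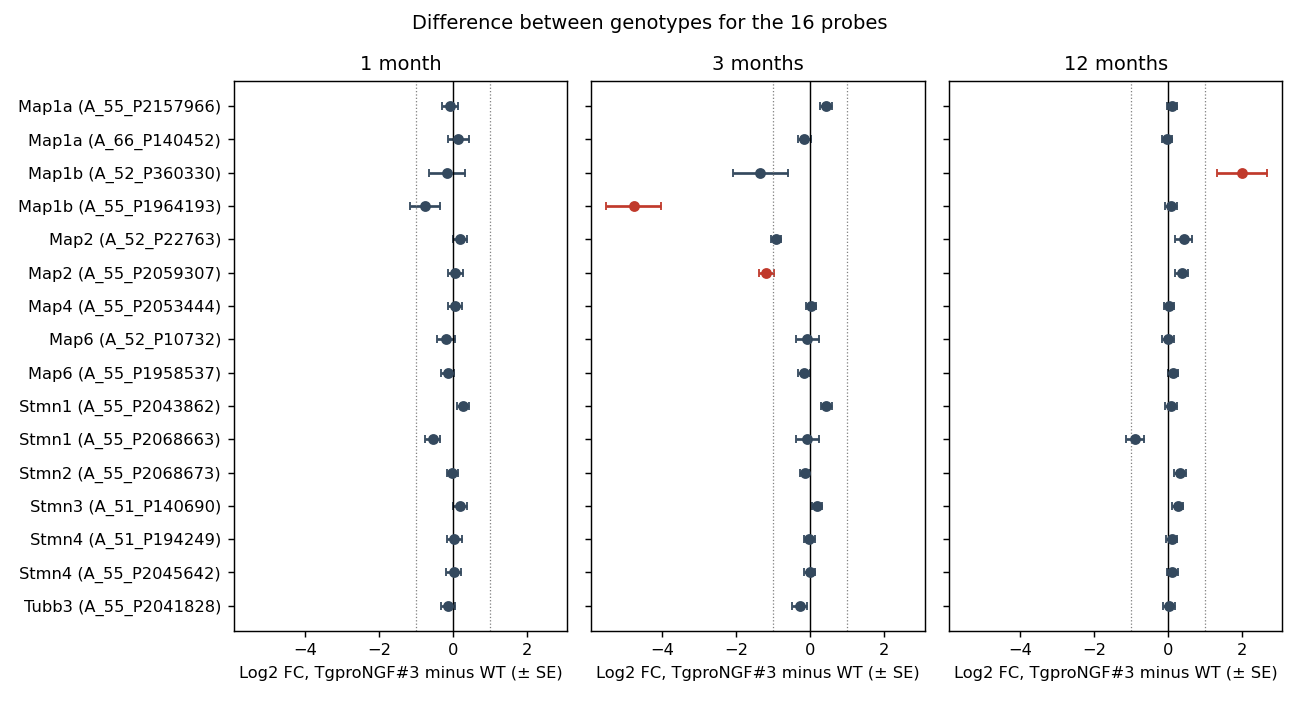
Log2 FC (TgproNGF#3 minus WT, x axis, with its standard error) of each of the 16 probes (y axis) at 1, 3 and 12 months. Red marks the called probes and dotted lines mark a Log2 FC of -1 and 1. Map1b probe A_55_P1964193 lies at -4.78 at 3 months, and Map1b probe A_52_P360330 at 2.00 at 12 months.

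Promoters are shown for Map1b and Map2, the genes with called probes at 3 months, as the DNA from 250 bases before to 50 bases after the start used in the RefSeq promoter table (GRCm38.p6), which for Map2 lies inside the annotated gene and is not its first base. Capitals mark GGGCGG, the GC box, searched on both strands. The Map2 window (chr1:66175079-66175378, plus strand) holds 5 GC boxes and the Map1b window (chr13:99516553-99516852, minus strand) holds 2.
Map2: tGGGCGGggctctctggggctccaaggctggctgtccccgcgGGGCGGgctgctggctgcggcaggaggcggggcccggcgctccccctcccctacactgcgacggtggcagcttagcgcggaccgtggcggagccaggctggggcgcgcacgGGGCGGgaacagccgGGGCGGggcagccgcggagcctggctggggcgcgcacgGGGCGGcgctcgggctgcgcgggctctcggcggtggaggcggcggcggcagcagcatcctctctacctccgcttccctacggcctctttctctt
Map1b: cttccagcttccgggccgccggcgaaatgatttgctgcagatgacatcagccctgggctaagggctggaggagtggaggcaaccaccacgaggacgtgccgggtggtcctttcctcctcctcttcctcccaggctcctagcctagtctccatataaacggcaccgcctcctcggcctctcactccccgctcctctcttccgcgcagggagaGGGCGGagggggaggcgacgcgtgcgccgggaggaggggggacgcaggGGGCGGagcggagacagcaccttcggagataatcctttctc
GC boxes occur in 35.7% of 32851 promoters of the same length. TATAAA, also searched on both strands, occurs 1 time in the Map1b window, 0 times in the Map2 window and in 13.6% of all promoters. The GC content is 77.7% for Map2 and 65.7% for Map1b, against a median of 52.7%. These are descriptions of the letters in the windows.

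Map1b, which is abundant in growing axons and falls as neurons mature, had the largest differences of the 10 genes, and its probes did not move alike. At 3 months its probe A_55_P1964193 measured -5.35, -2.09, -3.37 and -5.76 in the TgproNGF#3 mice and 1.33, 0.55, -0.19 and 0.85 in the WT mice. All 4 transgenic mice lay below all 4 WT mice, and they were spread over more than 3 log2 units. The Log2 FC was -4.78 (SE 0.739, n = 4 and 4), a ratio of 0.0365, and was the fourth lowest of the 33593 probes tested at that age. The other probe, A_52_P360330, measured 0.19, 1.21, 2.25 and -1.65 in the same TgproNGF#3 mice and 2.67, 1.38, 1.01 and 2.35 in the WT mice, with overlapping groups and a Log2 FC of -1.35 (SE 0.741) that was not called. Its value without TgproNGF#3 replicate 4 was -0.64, and without TgproNGF#3 replicate 3 it was -1.94 and was called.

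At 12 months it was the other Map1b probe that differed. A_52_P360330 measured 3.25, 3.20 and 3.45 in the TgproNGF#3 mice and 0.35, 0.42 and 3.12 in the WT mice. WT replicate 3 lay close to the transgenic mice, and the other 2 WT mice lay more than 2 log2 units below. The Log2 FC was 2.00 (SE 0.681, n = 3 and 3), a ratio of 4.01, and the groups did not overlap. The 3 TgproNGF#3 arrays and that of WT replicate 3 lie in array row 2 of the slide, and those of WT replicates 1 and 2 in row 1. Within row 2 the Log2 FC was 0.18 (3 mice against 1), and a fit with the array row as a block gave the same value and no call. Leaving out WT replicate 1, WT replicate 2 or TgproNGF#3 replicate 3 ended the call, with Log2 FC values of 1.53, 1.57 and 1.93. Without WT replicate 3 the Log2 FC was 2.92 and was called. On the same 6 arrays A_55_P1964193 measured 0.51, 0.84 and 0.55 in the TgproNGF#3 mice and 0.70, 0.45 and 0.50 in the WT mice, a Log2 FC of 0.09 (SE 0.153).

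At 1 month both Map1b probes had overlapping groups. A_55_P1964193 measured 0.10, -1.30, -0.13 and 0.37 in the TgproNGF#3 mice and 1.07, -0.21, 1.09 and 0.08 in the WT mice, with a Log2 FC of -0.75 (SE 0.408). A_52_P360330 measured 2.30, 1.21, 3.06 and 2.95 against 2.87, 2.85, 1.29 and 3.14, with a Log2 FC of -0.15 (SE 0.482). For the latter the Log2 FC was -1.10 within array row 1 and 0.79 within row 2. Mice of 1 group differed more in Map1b than in most genes: the pooled SD within groups of A_52_P360330 stood at percentiles 97.9, 99.8 and 99.5 of all probes from the youngest to the oldest mice, and that of A_55_P1964193 at 95.6, 99.8 and 27.4.

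**Figure D2:**
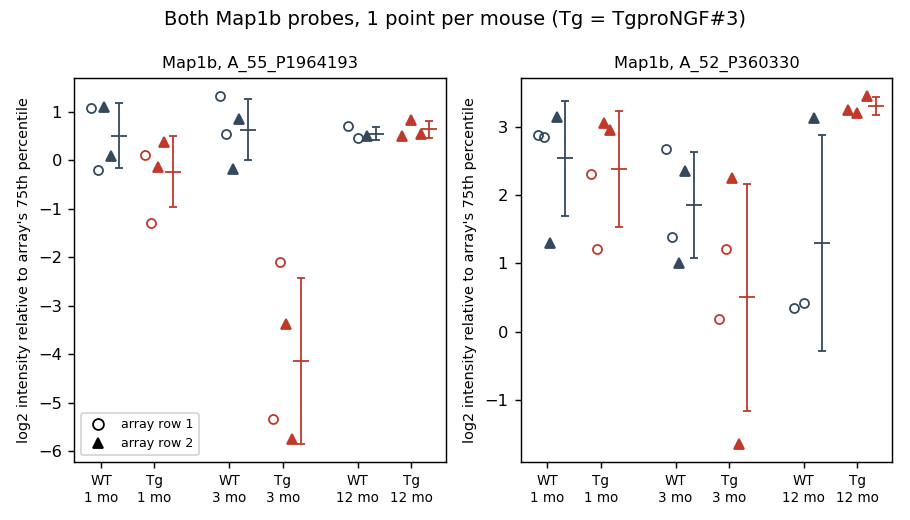
Level of both Map1b probes (y axis, log2 intensity relative to the 75th percentile of the array) in every mouse by genotype and age (x axis), with the group mean and SD beside the points. Open circles are arrays of row 1 and filled triangles arrays of row 2. In the left panel all TgproNGF#3 mice of 3 months lie at -2.09 or below, and in the right panel the WT mice of 12 months split into 0.35 and 0.42 in row 1 and 3.12 in row 2.

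Map2, the main structural protein of dendritic microtubules, was lower in the TgproNGF#3 mice at 3 months by both of its probes. The brighter probe, A_52_P22763, measured 1.63, 1.79, 1.65 and 1.47 in the TgproNGF#3 mice and 2.43, 2.60, 2.79 and 2.45 in the WT mice, a Log2 FC of -0.93 (SE 0.141). A_55_P2059307 measured 0.28, 0.57, 0.35 and -0.18 against 1.37, 1.29, 1.85 and 1.30, a Log2 FC of -1.20 (SE 0.2), a ratio of 0.436. Neither pair of groups overlapped, and only the second probe passed the fold threshold of the call. Within array rows 1 and 2 the Log2 FC was -0.80 and -1.06 for the first probe and -0.90 and -1.49 for the second. A further probe, A_55_P2059312, which the study's gene table assigns to Map2 but which has no RefSeq transcript in the array's annotation and is no member here, had a Log2 FC of -1.40 (SE 0.407) at 3 months, with groups that did not overlap, and of -0.21 and 0.01 at 1 and 12 months.

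Both Map2 probes overlapped between genotypes at the other ages. At 1 month A_52_P22763 measured 3.05, 3.06, 3.21 and 2.59 in the TgproNGF#3 mice and 3.08, 2.59, 2.72 and 2.77 in the WT mice (Log2 FC 0.19, SE 0.192). A_55_P2059307 measured 1.52, 1.70, 1.84 and 1.02 against 1.61, 1.28, 1.57 and 1.34 at that age (Log2 FC 0.07, SE 0.206). In these mice the direction of neither probe stood out from the spread. At 12 months A_52_P22763 measured 2.81, 2.46 and 3.01 in the TgproNGF#3 mice and 1.97, 2.30 and 2.72 in the WT mice (Log2 FC 0.43, SE 0.231), and A_55_P2059307 measured 1.30, 1.18 and 1.51 against 0.76, 0.87 and 1.27 (Log2 FC 0.37, SE 0.18). WT replicate 3 again had the highest WT value, and within array row 2 the Log2 FC was 0.04 and 0.06.

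**Figure D3:**
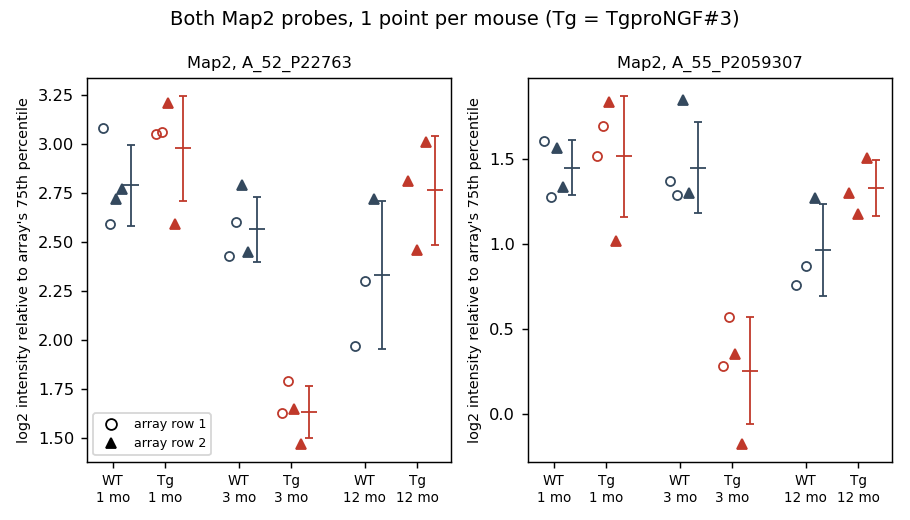
Level of both Map2 probes (y axis, log2 intensity relative to the 75th percentile of the array) in every mouse by genotype and age (x axis), with the group mean and SD. Open circles are arrays of row 1 and filled triangles arrays of row 2. At 3 months the TgproNGF#3 mice lie at 1.79 or below and the WT mice at 2.43 or above for A_52_P22763, and at 0.57 or below and 1.29 or above for A_55_P2059307.

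The lower Map2 values at 3 months stood beside lower levels of 2 of 4 markers of hippocampal neurons. The mean level of the hippocampal neuron list (Prox1, Neurod6, Fibcd1 and Spink8) ran from -1.10 to -0.79 in the TgproNGF#3 mice and from -0.63 to -0.30 in the WT mice. Fibcd1 (-0.93) and Spink8 (-0.78), both enriched in CA1 pyramidal neurons, were lower with an adjusted p below 0.05 in limma. The granule neuron marker Prox1 (-0.12) and Neurod6 (-0.13) lay at the median of all probes, which was -0.12, and 62.7% of all probes had a negative Log2 FC at that age. Of 7 general neuronal markers 6 had a positive Log2 FC and 0 were called. The choroid plexus list had 4 of 4 negative Log2 FC values, with mean levels from -1.23 to 3.15 in the TgproNGF#3 mice and from 2.21 to 3.00 in the WT mice. The part of these cell types in the Map2 and Map1b values was not tested.

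The other structural proteins differed little. Map1a, found mainly in mature dendrites and axons, gave for its brighter probe A_66_P140452 levels of 1.30, 1.37, 1.11 and 1.12 in the TgproNGF#3 mice of 3 months and 1.18, 1.65, 1.66 and 1.09 in the WT mice (Log2 FC -0.17, SE 0.172). At 1 month it measured 2.02, 2.61, 2.86 and 2.47 against 1.95, 2.93, 1.81 and 2.67 (Log2 FC 0.15, SE 0.288). At 12 months it measured 2.42, 2.21 and 2.16 against 2.39, 2.37 and 2.11 (Log2 FC -0.03, SE 0.148). Its dimmer probe A_55_P2157966 had a Log2 FC of 0.42 (SE 0.162) at 3 months, where the TgproNGF#3 mice (-0.35 to 0.20) lay above the WT mice (-0.77 to -0.43), and of -0.08 and 0.11 at 1 and 12 months. With groups that did not overlap, 4 of the 16 probes stood apart at 3 months, beside 20.3% of all probes.

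Map4, a microtubule-associated protein present in most tissues, measured 4.07, 3.97, 4.10 and 3.84 in the TgproNGF#3 mice of 1 month and 4.26, 3.59, 4.04 and 3.81 in the WT mice. At 3 months it measured 3.41, 3.59, 3.38 and 3.53 against 3.65, 3.45, 3.30 and 3.41. At 12 months it measured 3.53, 3.47 and 3.42 against 3.57, 3.50 and 3.29. The groups overlapped at every age, and the Log2 FC lay between 0.02 and 0.07 (SE 0.133 to 0.185).

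Map6, also called STOP, keeps microtubules stable in the cold. Its brighter probe A_55_P1958537 measured 3.58, 3.36, 3.71 and 3.19 in the TgproNGF#3 mice of 1 month and 3.80, 3.46, 3.68 and 3.47 in the WT mice. At 3 months the values were 2.78, 2.96, 2.77 and 2.66 against 3.31, 2.68, 2.88 and 2.94. At 12 months they were 3.33, 3.45 and 3.54 against 3.34, 3.16 and 3.39. Again the groups overlapped at every age, with Log2 FC values of -0.14, -0.16 and 0.15, and the dimmer probe had values of -0.18, -0.08 and 0.00.

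Stmn1, the stathmin that is also found in dividing cells and young neurons, had probes with Log2 FC values of opposite sign at every age. The same held for Map1a, and for neither gene under every setting. At 3 months the value of the brighter Stmn1 probe was positive in 6 of 21 alternatives, up to 0.09 within array row 2. At 12 months that of the other Stmn1 probe was -0.06 without TgproNGF#3 replicate 3. The brighter probe A_55_P2068663 measured 4.38, 3.61 and 3.90 in the TgproNGF#3 mice of 12 months and 5.14, 4.85 and 4.57 in the WT mice, a Log2 FC of -0.89 (SE 0.236). The transgenic mice lay below the WT mice, but the difference did not reach the fold threshold. At 12 months 2 of the 16 probes had groups that did not overlap, this one and A_52_P360330 of Map1b, beside 15.5% of all probes. Within array row 2 the Log2 FC of A_55_P2068663 was -0.60.

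At 1 month A_55_P2068663 measured 4.00, 3.85, 3.98 and 4.61 in the TgproNGF#3 mice and 4.73, 4.61, 4.68 and 4.62 in the WT mice, with a Log2 FC of -0.55 (SE 0.194). TgproNGF#3 replicate 4 lay at the level of the WT mice, and the other 3 lay below all of them. At 3 months it measured 4.63, 3.68, 4.08 and 4.30 against 4.74, 4.12, 3.45 and 4.74, with a Log2 FC of -0.09 (SE 0.313). The other probe, A_55_P2043862, had a Log2 FC of 0.27 (SE 0.164) at 1 month, 0.43 (SE 0.152) at 3 months and 0.09 (SE 0.162) at 12 months, with overlapping groups each time. At 1 month TgproNGF#3 minus WT between mice of the same replicate number was -0.73, -0.76, -0.69 and -0.01 for A_55_P2068663. For A_55_P2043862 it was 0.16, 0.36, 0.30 and 0.27. The labels give no pairing of mice. These 2 of the 16 probes had 1 sign in all 4 differences, beside 11.7% of the probes measured on all arrays of that age.

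**Figure D4:**
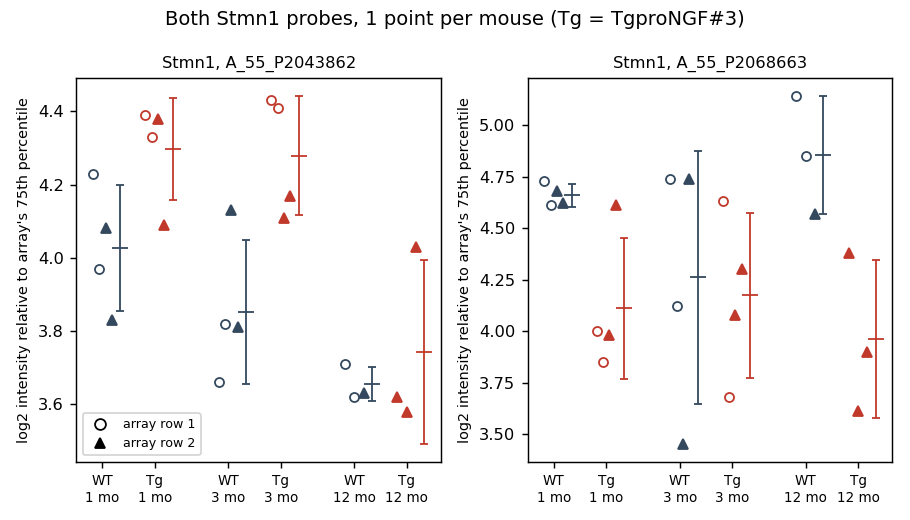
Level of both Stmn1 probes (y axis, log2 intensity relative to the 75th percentile of the array) in every mouse by genotype and age (x axis), with the group mean and SD. Open circles are arrays of row 1 and filled triangles arrays of row 2. For A_55_P2068663 the TgproNGF#3 mice of 12 months lie at 4.38 or below and the WT mice at 4.57 or above, whereas the groups of A_55_P2043862 overlap.

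The neuronal stathmins showed smaller differences. Stmn2 (SCG10), a growth cone protein, measured 4.25, 4.30, 4.40 and 4.12 in the TgproNGF#3 mice of 1 month and 4.40, 4.18, 4.35 and 4.21 in the WT mice. At 3 months it measured 3.93, 3.85, 3.69 and 3.73 against 4.04, 3.73, 4.09 and 3.94. At 12 months it measured 4.36, 4.24 and 4.35 against 3.88, 3.85 and 4.24, where WT replicate 3 had the highest WT value. The Log2 FC was -0.02, -0.15 and 0.32 (SE 0.154, 0.136 and 0.154) at the 3 ages, and 0.07 within array row 2 at 12 months.

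Stmn3 (SCLIP), a stathmin of neurons, had a positive Log2 FC at each age, of 0.20, 0.17 and 0.27 (SE 0.185, 0.136 and 0.146), with overlapping groups. It measured 4.94, 5.09, 5.36 and 4.99 in the TgproNGF#3 mice of 1 month and 4.66, 5.20, 4.73 and 4.99 in the WT mice. At 3 months the values were 5.20, 5.09, 4.98 and 4.94 against 5.0, 4.67, 5.0 and 4.86. At 12 months they were 5.38, 5.14 and 5.32 against 4.88, 4.99 and 5.18, and the Log2 FC within array row 2 was 0.11.

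Stmn4 (RB3), a further neuronal stathmin, gave nearly equal differences on its probes. A_51_P194249 measured 4.87, 5.21, 5.50 and 4.72 in the TgproNGF#3 mice of 1 month and 4.88, 5.14, 5.09 and 5.06 in the WT mice. At 3 months it measured 5.12, 5.05, 4.77 and 5.14 against 5.14, 4.75, 5.28 and 5.01. At 12 months it measured 5.23, 5.25 and 5.22 against 5.20, 4.91 and 5.29. Its Log2 FC was 0.03, -0.03 and 0.10 and that of A_55_P2045642 was 0.02, -0.02 and 0.12, none with groups apart.

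Tubb3, the beta-tubulin isotype of neurons, measured 3.21, 2.92, 2.95 and 3.16 in the TgproNGF#3 mice of 1 month and 3.52, 3.01, 3.33 and 2.91 in the WT mice. At 3 months it measured 2.56, 2.70, 2.57 and 2.48 against 3.32, 2.41, 2.76 and 2.99. At 12 months it measured 2.60, 2.42 and 2.83 against 2.60, 2.50 and 2.66. The groups overlapped at every age, and the Log2 FC was -0.13, -0.29 and 0.03 (SE 0.186, 0.193 and 0.152).

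The difference between probes of a gene on 1 array is not moved by an alignment that shifts the whole array, such as that to the 75th percentile. For Map1b, A_55_P1964193 minus A_52_P360330, taken relative to the WT mean, ran from -4.40 to -2.09 in the TgproNGF#3 mice of 3 months and from -0.28 to 0.39 in the WT mice, without overlap. The Log2 FC values of its probes lay 3.42 apart at that age, against a median of 0.292 over the 3430 genes with 2 probes tested, and 2 of those genes, Map1b included, had a gap at least as large. At 12 months the Map1b gap was 1.92, with 8 of 3464 genes at least as large, and the per-array differences overlapped because WT replicate 3 (-1.87) lay among the TgproNGF#3 mice (-2.15 to -1.61).

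For Stmn1, A_55_P2043862 minus A_55_P2068663 ran from 0.44 to 1.33 in the TgproNGF#3 mice of 12 months and from -0.23 to 0.27 in the WT mice, without overlap. At 1 month it ran from 0.11 to 1.11 against -0.16 to 0.13, and at 3 months from 0.21 to 1.13 against -0.67 to 1.08, with overlap at both ages. The pairs of Map1a, Map2, Map6 and Stmn4 overlapped between genotypes at all 3 ages. Probes of opposite sign occurred in 2 of the 6 genes at each age, Map1a and Stmn1. This stood against 36.8%, 36.8% and 31.3% of all genes with 2 probes at 1, 3 and 12 months.

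**Figure D5:**
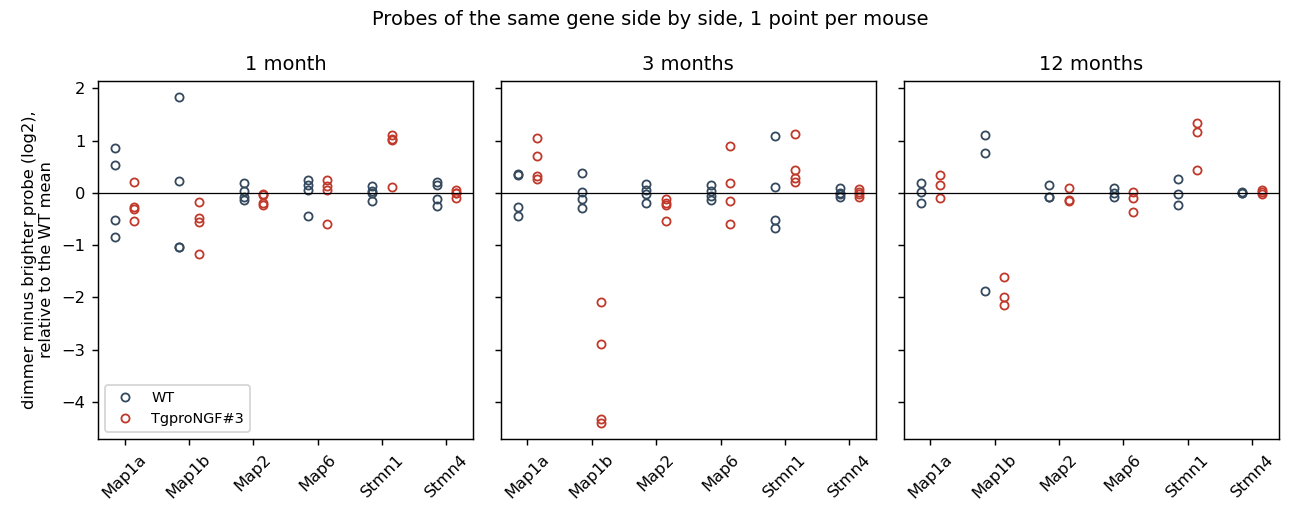
Difference in log2 intensity between the dimmer and the brighter probe of the same gene on each array, relative to the WT mean (y axis), for the 6 genes with 2 probes (x axis), 1 point per mouse. The TgproNGF#3 mice stand apart for Map1b at 3 months (-4.40 to -2.09) and for Stmn1 at 12 months (0.44 to 1.33).

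The median Log2 FC of the 16 probes was 0.00 at 1 month against 0.07 over all probes, -0.12 against -0.12 at 3 months, and 0.11 against 0.01 at 12 months. In 1 fit of all 22 arrays the Log2 FC differed between 1 and 3 months for 3 of 16 probes, beside 2.87% of all probes, and between 3 and 12 months for 3, beside 4.52% (adjusted p below 0.05 in limma). These were both probes of Map2 and A_55_P1964193 of Map1b each time, and with median alignment 1 probe differed between 1 and 3 months. The genes were selected on these values, so the counts are a description. The Log2 FC was positive for 8 of 16 probes at 1 month, beside 63.8% of all probes, for 4 of 16 at 3 months, beside 37.3%, and for 14 of 16 at 12 months, beside 51.2%. With other scalings of the arrays 5 to 9, 4 to 8 and 11 to 15 of 16 were positive at the 3 ages. Within array row 2, 11 of 16 were positive at 12 months. There the values of both Stmn4 probes (-0.05 and -0.05), of Tubb3 (-0.05) and of A_52_P10732 of Map6 (-0.19) were negative, and those of Map2, Stmn2, Stmn3 and A_52_P360330 of Map1b were smaller, as given above. Larger or newly positive there were the values of Map4 (0.18, from 0.02), A_55_P1964193 of Map1b (0.13, from 0.09), A_55_P2043862 of Stmn1 (0.11, from 0.09) and A_66_P140452 of Map1a (0.15, from -0.03). Of the general neuronal markers 7 of 7 were positive at 12 months, with mean levels from 3.95 to 4.19 in the TgproNGF#3 mice and from 3.69 to 4.06 in the WT mice, and of the choroid plexus, leptomeninges and oligodendrocyte markers 4 of 4, 4 of 5 and 5 of 6 were negative. Of all these markers only Slc6a13, a transporter of leptomeningeal cells, was called (Log2 FC -1.42). Their part in the shift of the 16 probes was not tested.

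Other genes of the microtubule system were read from 5 lists with 1 probe per gene, and most did not pass the call. At 1 month 0 of 97 genes were called. At 3 months 5 of 96 were called and all 5 were lower in TgproNGF#3, beside 6.12% of all probes called lower. They were 3 of 18 kinases that phosphorylate microtubule-associated proteins or stathmins, 1 of 18 genes of severing, folding and tubulin modification, and 1 of 17 motor genes, while 0 of 15 tubulins and 0 of 28 other microtubule-binding proteins were called. The kinases were Mark3 (Log2 FC -1.41) and Mark2 (-1.02), which phosphorylate the microtubule-binding repeats of Map2, Map4 and tau, and Prkaca (-1.30), a catalytic subunit of protein kinase A. Katnal1 (-1.49) is a katanin-like severing protein and Dync1li1 (-2.36) a light intermediate chain of the dynein motor. At 12 months the tubulin Tubb6 (-1.05) was called lower among 96 genes, beside 0.992% of all probes called lower, and 0 were called higher.

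Levels in the WT mice were also compared between ages (limma, adjusted over 32420 probes). The choice of genes did not use this comparison, but the same WT values enter the Log2 FC that it used. Age cannot be told apart from slide here, nor from sex where the mice of 12 months are compared. From 1 to 3 months 6 of 16 probes were lower, beside 43.2% of all probes: both probes of Map1a (-0.95 for A_66_P140452, adjusted p = 0.00293, and -0.68), both of Map6 (-0.65 and -0.83), Map4 (-0.48) and Stmn2 (-0.33). From 3 to 12 months only A_66_P140452 of Map1a passed, higher by 0.90 (adjusted p = 0.0268), beside 5.57% of all probes higher. From 1 to 12 months Map4 (-0.47, adjusted p = 0.025) and Tubb3 (-0.61, adjusted p = 0.0217) were lower, beside 27.5% of all probes. These counts moved with the processing: with dim spots kept they were 0, 0 and 1, and with the log2 values as deposited 0, 1 and 0. Median alignment gave higher counts from 1 to 3 and from 1 to 12 months, as listed in the last section.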

How the data were processed

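Hippocampal RNA of 22 mice was hybridized to 1-colour Agilent arrays, 1 mouse each. The authors deposited per spot the background-corrected Cy3 intensity of Feature Extraction 10.7.3.1, with its quality marks, and also log2 values aligned at the 75th percentile. Here log2 intensities of non-control spots that were well above background and not outliers were taken minus the array's 75th percentile of the spots left, and 0 columns were left without a sample. Genotypes were set against each other age by age in limma 3.58.1 (R 4.3.3) with two-sided tests of probes that had 2 or more values per group, and p-values were adjusted by Benjamini-Hochberg over all probes tested. The number of arrays limits the precision. The genes, lists and calls were chosen with earlier results of these data known. Values in every mouse are given for called probes and the brightest probe of each gene. The WT age comparison was added after the data were seen.

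Replicate numbers came from the sample labels. Same-numbered arrays lie in 1 row of the slide at 1 and at 3 months. Correlations of their deviations (each from its group mean) were 0.511, 0.272, 0.191 and 0.208 at 1 month, where number 4 correlated best with number 2. At 3 and 12 months they ran from -0.356 to 0.0503. The labels give no pairing of mice, so differences between same-numbered mice of 1 month are a description. The alternatives tried were dim or outlier spots kept, the 75th percentile over all spots, median and quantile alignment, normexp with an offset of 50, the deposited log2 values, blocks, single array rows and each mouse left out.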

Additional observations from a re-analysis of the deposited data

Results flagged for a closer look

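In 64 groups of 4 mice, 2 had 1 value far from the other 3, and chance alone gives about 1 in 20 groups. WT replicate 3 of 1 month lay at 1.29 for A_52_P360330 of Map1b, with the others from 2.85 to 3.14. WT replicate 3 of 3 months lay at 1.85 for A_55_P2059307 of Map2, with the others from 1.29 to 1.37.

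In 1 limma fit of all 22 arrays the Log2 FC differed between ages for 3 of 16 probes from 1 to 3 months, beside 2.87% of all probes, and for the same 3 from 3 to 12 months, beside 4.52%. The genes were chosen with these contrasts known, so the values are a description, and the slide and sex cannot be told apart from age. For A_55_P1964193 of Map1b the Log2 FC was lower at 3 months than at 1 month (difference -4.03, SE 0.804) and higher at 12 than at 3 months (4.86, SE 0.868). For Map2 the differences were -1.11 (SE 0.249) and 1.36 (SE 0.269) on A_52_P22763, and -1.26 (SE 0.272) and 1.56 (SE 0.294) on A_55_P2059307.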

How the results depend on the processing

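In the alternative fits that used both array rows, 0 probes were called at 1 month, beside 0.133% to 1.06% of all probes. A_55_P1964193 of Map1b and A_55_P2059307 of Map2 were called at 3 months, beside 3.67% to 8.54% of all probes. Within single array rows only the Log2 FC was taken, without a test. Within row 1 that of A_55_P2059307 at 3 months was -0.90. At 12 months the count ran from 0 to 2 with 1 mouse left out, and the share of all probes called moved too. The count was 0 without TgproNGF#3 replicate 3, WT replicate 1 or WT replicate 2, beside 1%, 0.742% and 0.681% of all probes. It was 2 without TgproNGF#3 replicate 1 or WT replicate 3, beside 1.75% and 3.06%. Without WT replicate 3, 1 probe also had an adjusted p below 0.05 in limma. With the replicate number as a block, the counts called were 0, 2 and 1 at the 3 ages, beside 1.06%, 6.67% and 1.44% of all probes. With the array row as a block at 12 months, where row 1 holds WT mice only, 0 were called, beside 0.517% of all probes. With median alignment 1 probe differed in Log2 FC between 3 and 1 months, and the median of all probes at 12 months moved to 0.155. The WT counts from 1 to 3, 3 to 12 and 1 to 12 months (6, 1 and 2) were 0, 0 and 1 with dim spots kept, 1, 2 and 1 with the percentile over all spots, 8, 0 and 9 with median alignment, 6, 0 and 5 with quantile alignment, 0, 1 and 0 with the deposited log2 values, and 4 to 7, 0 to 1 and 0 to 4 with 1 mouse left out. The causes were not tested. Of single Log2 FC values and medians 994 stayed within 1 SD or kept their call and 21 moved further, of which 18 were with the array row fixed.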
